A study of Homo sapiens with 6 samples.

Results

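Genes that are associated with neurons, namely DOK6, CADPS2, TMEM178B, CD200, NOVA1, DPYSL5 and MAP2, were followed in RNA-seq libraries of an osteoblastic cell line that expresses mutant histone H3.3. They are 7 of the 35639 genes in the table, and they were chosen by their values: each is associated with neurons and lay above both libraries with wild-type H3.3 in both libraries with the mutant. The WT and G34W values given for them are therefore a description, and no test of that contrast is given for them. The value in the empty vector library was not used to choose them.

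The cells were hFOB, a line of human fetal osteoblastic cells that divides at 34 °C because its immortalising SV40 large T antigen is active at that temperature. They carried a lentiviral vector that also encodes dTomato, either empty (EV) or with HA-tagged H3.3, wild type (WT) or with tryptophan in place of glycine at position 34 (G34W), and were bulk sorted for dTomato. The H3.3 insert is a Drosophila cDNA, so the human H3.3 genes do not check the labels. Each line gave 2 libraries of poly(A) RNA, taken 15 days after transduction from cells at 34 °C in duplicate. The study's methods use the word replicates for separate wells within an experiment and do not say for these libraries whether the duplicates came from separate infections, so the p-values given here measure only the spread between these libraries. Groups follow the library titles. In the labels, the genotype entries swap the G34W and WT libraries, and if those entries are right, each direction between G34W and WT given here is reversed. Values are normalised estimated counts, which are not read counts. They are comparable between libraries for a gene and not between genes, because transcript length was not divided out. Where a gene is said to have the largest value of a list, that is by these values and not per length. EV replicate 1 was left out, since it is listed at 0 for 28688 genes, the 7 included. The remaining libraries are called EV 2, WT 1, WT 2, G34W 1 and G34W 2, and their values sum to between 38821144 (G34W 1) and 48024590 (WT 2).

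In neurons the 7 genes act at different places. DOK6 is an adaptor that binds activated RET and Trk receptors, CD200 is a membrane glycoprotein whose receptor sits on myeloid cells, and TMEM178B is a little characterised membrane protein. CADPS2 primes dense-core vesicles, which store peptides and amines, for release. NOVA1 is an RNA-binding protein that regulates splicing in neurons. DPYSL5, also called CRMP5, is a collapsin response mediator protein of growing neurites, and MAP2 binds microtubules in dendrites.

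G34W 1 stood apart from the other libraries in a further set of genes, the transcription factors and other markers of pluripotent stem cells. All 12 genes of a pluripotency list were higher in G34W 1 than in each of the other 4 libraries, by at least 6.31-fold. Their values summed to 66576 in G34W 1, with POU5F1 at the largest value, 19441. In G34W 2 the sum was 964, against 1142 in EV 2, 985 in WT 1 and 1073 in WT 2, and DNMT3B had the largest value in each of these libraries. PRDM14 was listed at 0 in EV 2, and none of the 12 was at 0 in the other 4 libraries. The 13 protein genes of mitochondrial DNA, examined after their values were seen, also stood apart, with a sum of 238994 in G34W 1 (0.616% of the library's values) and between 4416 and 6479 in the other 4 libraries. SOX2, which also marks neural progenitors, was 1347 in G34W 1, 7.96 in G34W 2 and between 3.64 and 7.22 in EV 2 and WT. G34W 2 thus gave, for each of the 7 genes, a value from a library whose pluripotency genes were near the EV and WT level, and results are given for it alone as well. In bulk RNA, fewer cells of a kind and less RNA per cell cannot be told apart.

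Of the 7 genes, 5 (DOK6, CADPS2, TMEM178B, NOVA1 and DPYSL5) were at least 2-fold higher in G34W 2 than in each of EV 2, WT 1 and WT 2 on the log2(value + 1) scale, with G34W 1 set aside. The same held for 145 of the 16259 genes with a mean of at least 10 over the 5 libraries (0.892%). The rule that chose the 7 genes had already set G34W 2 above WT, so nothing is read from their count beside that share. DOK6, TMEM178B, NOVA1 and DPYSL5 also reached that mean only through their G34W values. The other 2, CD200 and MAP2, were lower in G34W 2 than in EV 2. Within the 5 genes the G34W libraries also differed in order: DOK6 was higher in G34W 2, and the other 4 were higher in G34W 1.

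**Figure D1:**
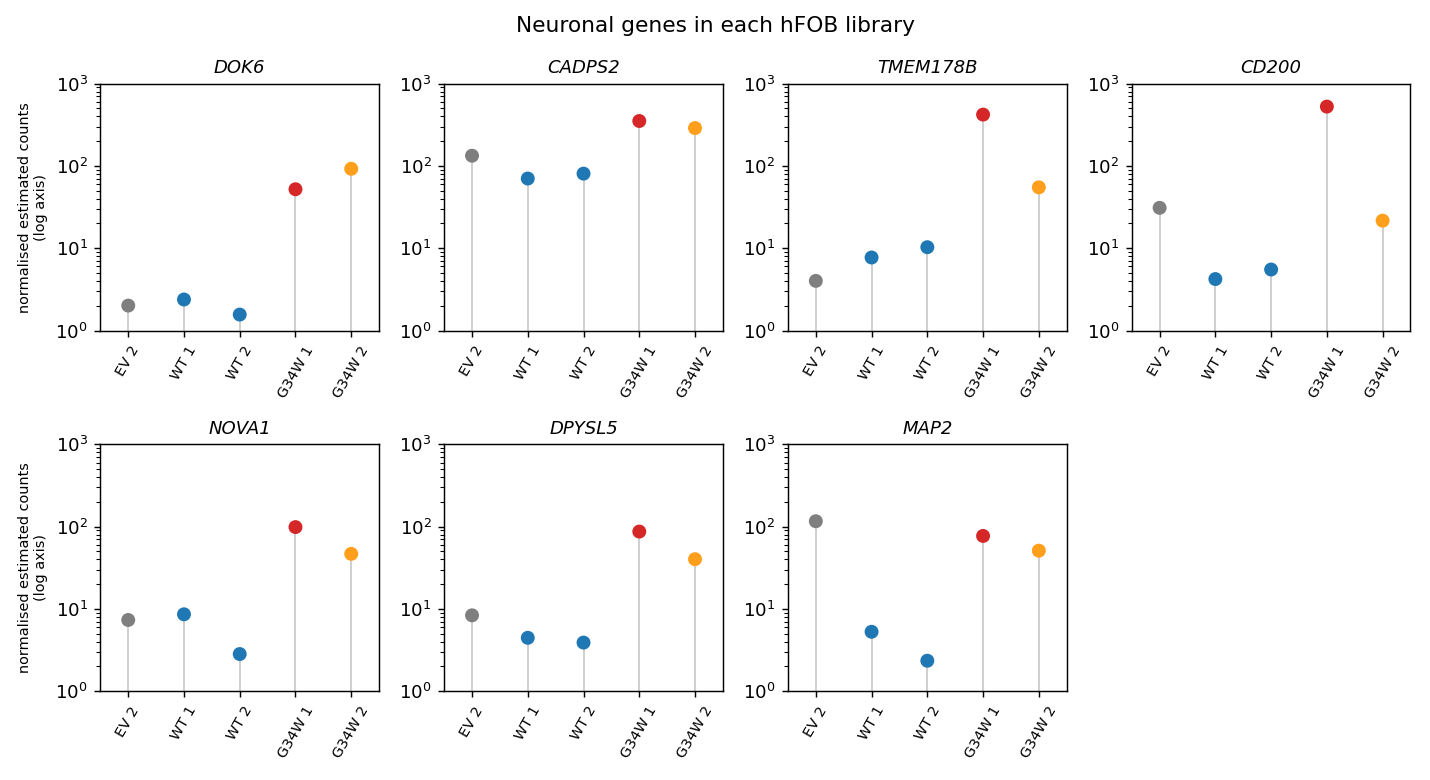
Each panel plots 1 gene, with the 5 libraries on the horizontal axis and the normalised estimated counts on a log axis; each point is 1 library. For DOK6 the G34W points at 52.1 and 92.3 sit far above the others, CD200 has a single high point of 526 in G34W 1, and for MAP2 the highest point is EV 2 at 116.

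DOK6 (ENSG00000206052, chr18:69400888-69849087) was 2.01 in EV 2, 2.38 in WT 1, 1.56 in WT 2, 52.1 in G34W 1 and 92.3 in G34W 2. EV 2 lay between the WT libraries, and G34W 1 was 25.9-fold and G34W 2 was 45.9-fold above EV 2. It was the only one of the 7 with a lower value in G34W 1 than in G34W 2, at 0.564 times. The low values rest on few fragments. The smallest value that often recurs in a library, roughly 1 estimated count, was 0.555 in WT 1 and 0.729 in WT 2, so DOK6 was about 4.29 and 2.14 such steps there, and the exact fold is uncertain.

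CD200 (ENSG00000091972, chr3:112332573-112362812) was 31.0 in EV 2, 4.22 in WT 1, 5.51 in WT 2, 526 in G34W 1 and 21.6 in G34W 2. The G34W libraries differed by 24.3-fold, and EV 2 was above G34W 2. Both EV 2 and G34W 2 were above WT, and G34W 2 alone exceeded the higher WT library by 3.92-fold. TMEM178B (ENSG00000261115, chr7:141074064-141511296) was 4.01 in EV 2, 7.71 in WT 1, 10.3 in WT 2, 421 in G34W 1 and 54.9 in G34W 2. EV 2 was the lowest library. G34W 1 was 7.66-fold above G34W 2, which in turn was 5.34-fold above the higher WT library and 13.7-fold above EV 2. For CD200 and TMEM178B the high value in G34W 1 stood beside the raised pluripotency genes of that library, whose part in it was not tested.

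CADPS2 (ENSG00000081803, chr7:122318411-122886460) was 133 in EV 2, 70.3 in WT 1, 80.6 in WT 2, 352 in G34W 1 and 289 in G34W 2. It was the member with the closest G34W pair, at 1.22-fold, and with the smallest step over EV 2 among the 5, at 2.17-fold in G34W 2. EV 2 was 1.65-fold above the higher WT library, which is more than the difference between the WT libraries.

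NOVA1 (ENSG00000139910, chr14:26443090-26598033) was 7.35 in EV 2, 8.61 in WT 1, 2.83 in WT 2, 98.8 in G34W 1 and 46.8 in G34W 2. EV 2 lay between the WT libraries, and G34W 2 was 6.36-fold above EV 2. Its WT libraries differed more than its G34W libraries did on the log2 scale.

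DPYSL5 (ENSG00000157851, chr2:26847995-26950351) was 8.37 in EV 2, 4.46 in WT 1, 3.90 in WT 2, 87.2 in G34W 1 and 40.3 in G34W 2. EV 2 was 1.88-fold above the higher WT library, and G34W 2 was 4.81-fold above EV 2. MAP2 (ENSG00000078018, chr2:209424047-209734112) was 116 in EV 2, 5.28 in WT 1, 2.35 in WT 2, 77.2 in G34W 1 and 51.1 in G34W 2. EV 2 was the highest library, 22.0-fold above the higher WT library, and G34W 2 was 0.439 times EV 2. MAP2 therefore separated WT from the other libraries and not G34W from the rest. With 1 usable EV library, the spread of EV is unknown.

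The rule that chose the genes selected on the distance between the groups, so that distance is set beside the spread within pairs only to describe each gene and is no support for a difference. The difference between the lower G34W and the higher WT library was larger than the difference within either pair for 5 genes, DOK6, CADPS2, NOVA1, DPYSL5 and MAP2. For DOK6 it was 3.97 on the log2(value + 1) scale, against 0.81 between the G34W libraries and 0.40 between the WT libraries. For CADPS2 it was 1.83, against 0.28 and 0.20. For TMEM178B it was 2.31, less than the 2.91 between the G34W libraries, and for CD200 it was 1.80, against 4.54. The size of the difference from WT is thus not well set for these 2 genes. With G34W 1 left out, the log2 difference from the WT mean was 2.50 in place of 3.95 for TMEM178B and 1.96 in place of 4.23 for CD200, and with G34W 2 left out it was 5.41 and 6.50.

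**Figure D2:**
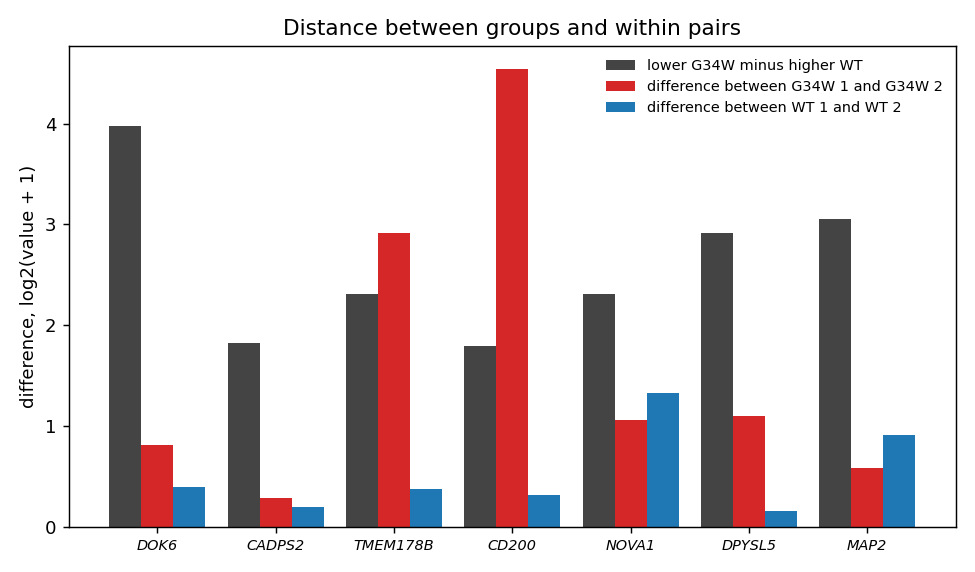
Bars give differences on the log2(value + 1) scale for each gene: the lower G34W minus the higher WT library (dark), between the G34W libraries (red) and between the WT libraries (blue). The dark bar is the tallest for 5 genes, and the red bar is the tallest for TMEM178B (2.91) and CD200 (4.54).

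Over both libraries, the log2 difference between G34W and WT ranged from 2.07 for CADPS2 (SE 0.44, n = 2 per group) to 4.58 for DOK6 (SE 1.25, n = 2 per group), on a scale that understates the change of low genes. The SE comes from the limma fit, which also draws on the variance of other genes. The pooled SD within the pairs of the gene itself was 0.17 for CADPS2 and 0.45 for DOK6. The sizes of these differences follow from the choice of the genes and are not set against other genes. Over the 16259 genes the median log2 difference from the WT mean was -0.17 in G34W 1, 0.04 in G34W 2 and -0.02 in EV 2. Rescaling each library to a median ratio of 1 moved the G34W 1 value by 0.17. The values and folds given for G34W 1 are as deposited and are not corrected for that shift. By their choice, the 7 genes had both G34W libraries above both WT libraries, as did 1891 of 16259 genes (11.6%), and nothing is read from that count. Without G34W 1, 5168 genes lay above both WT libraries in G34W 2, and without G34W 2, 4203 did so in G34W 1. All 7 passed the filter on low values, but only 3 (CADPS2, CD200 and MAP2) had a mean of at least 10 over EV 2 and WT. The other 4 passed through their G34W values.

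**Figure D3:**
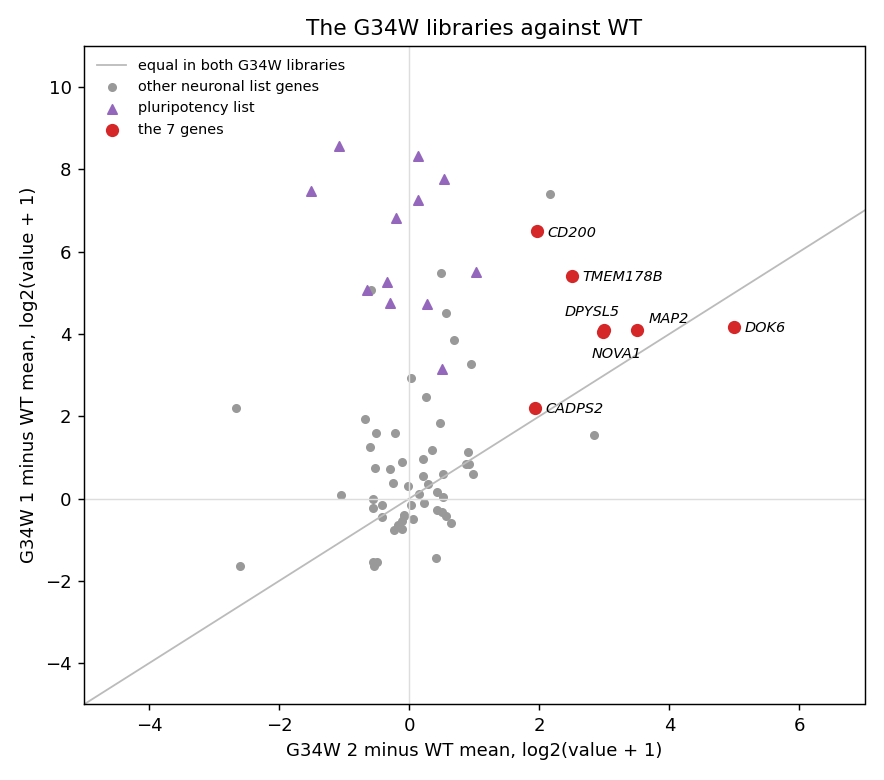
Each point is a gene, placed by its difference from the WT mean in G34W 2 (horizontal) and G34W 1 (vertical), both on the log2(value + 1) scale; red marks the 7 genes, purple the 12 pluripotency genes and grey the 55 other neuronal genes tested. Pluripotency genes lie between 3.16 and 8.56 on the vertical axis and between -1.51 and 1.02 on the horizontal one, while the 7 genes lie between 1.92 (CADPS2) and 4.99 (DOK6) on the horizontal axis.

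How common such a pattern was depended on the library. In G34W 1, 1077 genes (6.62%) were at least 2-fold above each of EV 2, WT 1 and WT 2, and in both G34W libraries 67 genes (0.412%) were, 5 of the 7 among them. The choice of the 7 genes set both G34W libraries above WT, so no difference from WT is read from their counts here. Of the 7, 6 met this threshold in G34W 1, all but MAP2. Without EV 2 in the comparison, 289 genes met it in G34W 2, all 7 among them, so the value of EV 2, a single library, set CD200 and MAP2 apart from the other 5. With a pseudocount of 10 there were 87, and with no filter on low values 949, and the same number of the 7 genes, 5, met it in both settings.

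**Figure D4:**
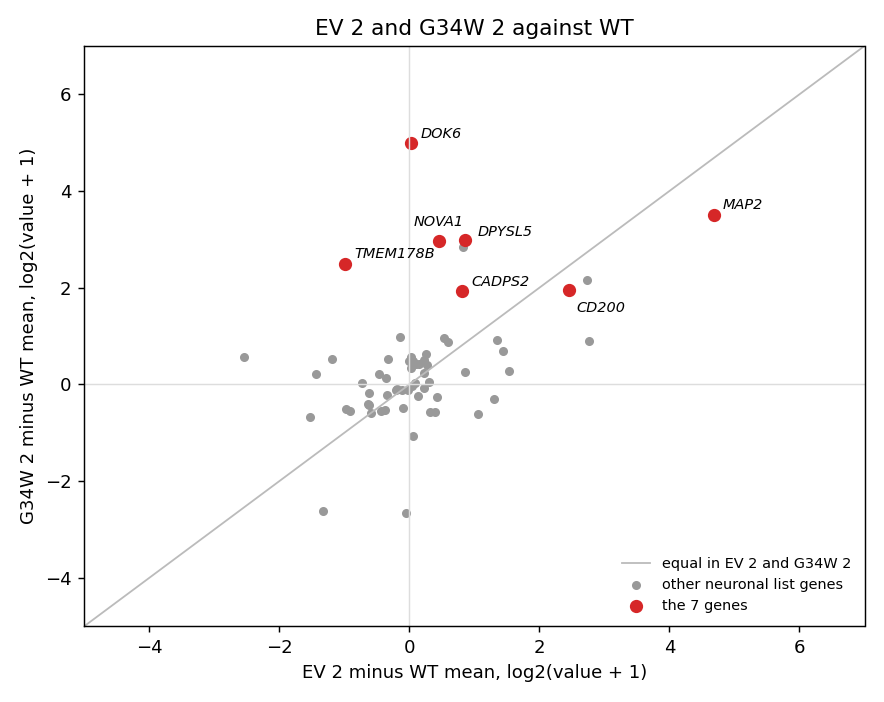
Each point is a gene, placed by its difference from the WT mean in EV 2 (horizontal) and G34W 2 (vertical), both on the log2(value + 1) scale; red marks the 7 genes and grey the 55 other neuronal genes tested. DOK6, TMEM178B, NOVA1, DPYSL5 and CADPS2 lie above the line of equal values, and CD200 and MAP2, at 2.46 and 4.68 on the horizontal axis, lie below it.

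The stretches just upstream of TMEM178B, NOVA1 and DPYSL5 are shown because these genes were at least 2-fold above EV 2 and WT in both G34W libraries and their promoters could be read outside the annotated gene. Of the 7 genes, 5 had an entry in the RefSeq promoter table (GRCh38.p14), and for each the most upstream start in it was used. The 250 bases before that start were searched on both strands for CAGCACC and GGACAGC, which are parts of the left and right arms of the RE1 element bound by the repressor REST, for the GC box GGGCGG and for the TATA box TATAAA. Capitals mark the matches, and on the other strand they read as the reverse complement. The sequences run 5′ to 3′ on the strand of the gene.
TMEM178B, chr7:141073814-141074063, plus strand: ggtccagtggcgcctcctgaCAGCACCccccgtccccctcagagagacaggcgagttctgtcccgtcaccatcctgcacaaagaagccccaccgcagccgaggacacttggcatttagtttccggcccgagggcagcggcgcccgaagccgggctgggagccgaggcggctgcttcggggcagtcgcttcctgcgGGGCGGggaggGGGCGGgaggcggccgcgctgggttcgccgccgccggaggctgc
NOVA1, chr14:26598034-26598283, minus strand: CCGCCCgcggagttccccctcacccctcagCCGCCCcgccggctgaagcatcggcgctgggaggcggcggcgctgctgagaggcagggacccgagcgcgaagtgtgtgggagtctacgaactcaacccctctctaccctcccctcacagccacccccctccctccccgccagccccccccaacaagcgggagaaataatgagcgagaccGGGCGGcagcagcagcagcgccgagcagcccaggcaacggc
DPYSL5, chr2:26847745-26847994, plus strand: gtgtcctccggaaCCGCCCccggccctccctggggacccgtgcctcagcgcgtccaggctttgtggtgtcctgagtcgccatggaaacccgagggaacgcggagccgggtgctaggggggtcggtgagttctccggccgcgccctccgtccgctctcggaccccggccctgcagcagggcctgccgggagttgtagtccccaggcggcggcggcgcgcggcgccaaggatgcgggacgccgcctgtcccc

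All 3 stretches held a GC box, which 42.6% of the 35116 promoters of the same length in the table also held. They were rich in CpG dinucleotides, with 26 in TMEM178B, 23 in NOVA1 and 30 in DPYSL5 against a median of 11, and 72.8%, 71.6% and 74.8% of their bases were G or C against a median of 58.0%. TMEM178B held CAGCACC, the searched part of the left RE1 arm, which was found in 6.16% of the promoters. None of the 5 held GGACAGC, the searched part of the right arm, which was found in 4.76%. The windows of CD200 and MAP2, which lie inside the annotated genes, held 9 and 6 CpG dinucleotides and no GC box, and that of CD200 held a TATA box, found in 10.7% of the promoters. A match describes letters and does not show that a factor binds.

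The libraries were also checked for what cells they came from. Of 10 osteoblast genes, COL1A1, COL1A2, SPARC, RUNX2, TWIST1, PRRX1 and ALPL had values of at least 107 in each of the 5 libraries, with COL1A2 at the largest value of the list in each. SP7 was at most 6.03 and IBSP, a marker of mature osteoblasts, was 2.50 in EV 2 and listed at 0 in the other 4 libraries. BGLAP, which encodes osteocalcin, was 5.55 in EV 2, 44.9 in WT 1, 39.3 in WT 2, 4.08 in G34W 1 and 27.4 in G34W 2. It was the 1 gene of the 8 tested with both G34W libraries below both WT libraries (12.5%, against 14.7% of all genes), with EV 2 also below WT, and 0 of the 8 had both above. RUNX2, the master regulator of bone formation, was 573 in EV 2, 387 in WT 1, 429.7 in WT 2, 236 in G34W 1 and 445 in G34W 2. ALPL, which pluripotent cells also express, was 1216 in G34W 1 and 107 in G34W 2, against 236 to 428 in EV 2 and WT. Of the human H3.3 genes, H3-3A was 11161 in G34W 1, 5570.4 in G34W 2 and between 3793 and 4237 in EV 2 and WT, and H3-3B was between 22030 and 26980.3 in the 5 libraries.

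Other neuronal genes were counted from lists of related function. In lists of member families, neuron identity, synapse, dense-core vesicle, neurotrophic receptor and proneural genes, 55 of 70 genes had a mean of at least 10. Both G34W libraries lay above both WT libraries for 11 of the 55 (20.0%, against 11.6% of all genes) and below both for 8 (14.5%, against 14.7%). In the limma fit of G34W against WT, 0 of the 55 and 0 of all 16259 genes (0%) had an adjusted p under 0.05. At an unadjusted p under 0.05 there were 5 of the 55 (9.09%), DCX, CPE and SNAP25 higher and NGFR and MAP1A lower, and 439 of all genes (2.7%). These counts rested on the settings and on single libraries. With no variance trend there was 1 of the 55, SNAP25 (1.82%, against 2.99% of all genes). With no filter on low values there were 0 of the 70 (0%, against 3.22%). Pseudocounts of 0.1 and 10 gave 5 and 4 of the 55, rescaled libraries 3 and a replicate block 7. With EV replicate 1 included there were 0. Of the 55 there were 12 without G34W 2, 0 without WT 2 and 2 without G34W 1, DOK5 and SNAP25, and of all genes there were 1510, 287 and 226. The median log2 difference was 0.14 over the 55 genes and -0.06 over all genes. Leaving out WT 1, WT 2 or G34W 2 raised the count over all genes to 6, 1 and 13, with none of the 55 called, and of the 13, 7 were genes of mitochondrial DNA and 4 were pluripotency genes.

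The libraries differed here as well. At least 2-fold above EV 2 and WT were 13 of the 55 genes in G34W 1 (23.6%, against 6.62% of all genes) and 1 in G34W 2 (1.82%, against 0.892%). That gene was SNAP25, a membrane fusion protein of the synapse, which was 22.1 in EV 2, 22.2 in WT 1, 6.38 in WT 2, 37.3 in G34W 1 and 92.9 in G34W 2. SCG3, a granin of secretory granules, was 506 in G34W 1 and between 7.05 and 15.04 in the other 4 libraries, and DCX, of migrating neurons, was 196 in G34W 1 and at most 6.83 elsewhere. The nearest list genes to the rule that chose the 7 were CHGB just inside, with 24.6 and 33.0 in WT and 42.4 and 33.2 in G34W, and SCG3 just outside, where G34W 2 at 14.8 fell under WT 1 at 15.04.

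Close relatives of the 7 genes were followed as well. Of 14 family genes tested, 0 had both G34W libraries above both WT libraries (0%, against 11.6% of all genes) and 4 had both below (28.6%, against 14.7%). CRMP1, of the same family as DPYSL5, was 1722 in G34W 1 and 229 in G34W 2, against 191 to 266 in EV 2 and WT. CADPS, the paralogue of CADPS2, was 49.0 in G34W 1 and 10.6 in G34W 2, against 7.35 to 20.5. DOK5, of the same subfamily as DOK6, was 146 in G34W 1 and 4.09 in G34W 2, against 24.2 to 39.9. MAP1A was 980.5 and 2031 in G34W and 2594 and 3165 in WT. CD200R1, the receptor of CD200, was at most 3.75, and NOVA2 at most 16.3.

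Receptors upstream of DOK6 were present without a common direction. RET was 58.0 and 37.2 in G34W and 19.4 and 101 in WT, and GFRA1, its co-receptor, was 947 and 1669 in G34W and 1029 and 1356 in WT. NTRK3 was 114 in EV 2, 29.3 and 8.40 in WT and 36.1 and 30.6 in G34W, an order of EV 2 over G34W over WT that MAP2 also had. Of 6 neurotrophic receptor genes tested, 1 had both G34W libraries above both WT libraries (16.7%, against 11.6% of all genes) and 1, NGFR, had both below (16.7%, against 14.7%), with 393 and 777 in G34W against 890 and 1481 in WT.

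Among neuron identity genes, 3 of 12 tested had both G34W libraries above WT (25%, against 11.6% of all genes), namely DCX, RBFOX1 and NEFM, and 1 had both below (8.33%, against 14.7%). The list summed to 8632 in EV 2, 7839 and 11754 in WT, 9308 in G34W 1 and 10270.4 in G34W 2, and TUBB3, a neuronal tubulin, had its largest value in each library. ELAVL4 was listed at 0 in EV 2, WT 2 and G34W 2, and was 10.3 in WT 1 and 1.55 in G34W 1. STMN2 was listed at 0 in EV 2 and WT 2, and was 0.961 in WT 1, 23.2 in G34W 1 and 3.44 in G34W 2. Both were too low to be tested. The synapse list had 5 of 10 above (50.0%, against 11.6%) and 0 below, and the dense-core vesicle list 2 of 11 above (18.2%) and 0 below. The lists are short, and nothing particular to any of them is read from these counts. CPE, of dense-core vesicles, was at 1440.2 and 1470.7 in G34W, 1219 in EV 2 and 1085 and 598 in WT, so EV 2 was also above both WT libraries. Of the proneural regulators, NEUROD1 was at most 0.512. MYT1L was 73.0 and 74.97 in WT, 38.7 in EV 2 and 23.1 and 50.5 in G34W. SRRM4 was 13.0 and 69.5 in WT, 11.5 in EV 2 and 9.07 and 4.16 in G34W. These 2 were the genes of that list that were tested, and both had both G34W libraries below WT (100%, against 14.7% of all genes). EV 2 was also below both WT libraries for each, between the G34W libraries for MYT1L and above both for SRRM4. Nothing is read from a count over 2 genes.

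REST, which represses neuronal genes outside the nervous system, was 1421 and 2166 in G34W and 1606 and 1946 in WT. Its partner RCOR1 was 963 and 1229 in G34W and 1238 and 1902 in WT. PTBP1, a repressor of neuronal splicing, was 14672 and 15241 in G34W and 13070.0 and 19189 in WT. Of these 3 genes, RCOR1 alone had both G34W libraries under both WT libraries (33.3%, against 14.7% of all genes). Other cell types were followed by further lists. The 6 genes of neural progenitors and glia summed to 95.3 in G34W 1 and 125 in G34W 2, against 42.8 to 102, with GFAP at the largest value in each library and SOX1 listed at 0 in EV 2 and WT. PAX6 was 37.2 in G34W 1 and at most 5.96 in the other 4 libraries, and of the 2 genes tested it was the 1 with both G34W libraries above WT (50.0%, against 11.6% of all genes). The 5 myeloid genes summed to 231 in G34W 1 and 101 in G34W 2, against 161 to 202, with CSF1R at the largest value in each library but WT 1, and 0 of the 4 tested lay above or below WT in both (0%, against 11.6% and 14.7%).

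The genes with the most similar profiles were found by the distance between log2(value + 1) profiles over the 5 libraries, each minus its own mean. ABHD14A-ACY1, a readthrough gene whose estimated counts may be split with its neighbours, was nearest to DOK6 (distance 0.81), followed by GSG1L (1.44). SPEGNB (0.41) and SLC27A2 (0.44) were nearest to CADPS2, and LARGE2 (0.43) and PCDHA7 (0.88) to TMEM178B. LARGE2 was 428 in G34W 1 and 67.2 in G34W 2, against 6.72 to 12.1 in EV 2 and WT. PCDHA7 shares its constant exons with other protocadherin alpha genes, so its values are uncertain. DCX (0.92) and SLC7A8 (0.97) were nearest to CD200, AC112229.1 (0.41) and EPHA6 (0.87) to NOVA1, and AC131392.2 (1.09) and ZNF385D (1.66) to MAP2. DPYSL5 was nearest to STAR (0.57), the cholesterol carrier of steroid synthesis, and then to NOVA1 (0.90). STAR was 12.3 in EV 2, 4.70 and 6.003 in WT, 79.8 in G34W 1 and 43.2 in G34W 2.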

How the data were processed

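Poly(A) RNA of hFOB cells was sequenced with a directional kit. The authors ran kallisto against Ensembl transcripts of GRCh38, summed the estimates by gene and used DESeq2 for normalisation. The values deposited are this signal for 35639 genes in 6 columns, and whole reads were not recovered from them, so depth is known only roughly and precision was judged from the spread between libraries.

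Values were transformed as log2(value + 1). Genes with a mean of at least 10 over EV 2, WT 1, WT 2, G34W 1 and G34W 2 (16259) entered a limma fit with 1 mean per group and a variance trend (limma 3.58.1, R 4.3.3), with Benjamini-Hochberg adjustment at 0.05. The members and lists were chosen with earlier results of these data known. Genes named are the members, list genes, the 2 nearest profiles of each member and list genes nearest the rule. Alternatives were other pseudocounts, filters, scalings, a replicate block and left-out libraries. Comparisons without a G34W library in the count above WT, without EV 2, and with G34W 1 in place of G34W 2 were chosen after seeing the data. Coordinates are RefSeq GRCh38.p14, found by symbol for all 7 genes. Figures used matplotlib 3.10.9.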

Additional observations from a re-analysis of the deposited data

Results flagged for a closer look

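EV replicate 1, which was left out of the comparisons and entered only an alternative fit, held 8 of the 70 other neuronal list genes (11.4%) above each of the other 5 libraries, against 9.88% of all 35639 genes. Its values sum to 157595150, against at most 48024590 in the others, and its smallest value that often recurs is 13.6, against 0.512 to 0.729. Per library total, 6 of the 8 were above each other library (8.57% of the 70, against 8.06% of all genes). Both shares were near those over all genes. These 6 lie on chromosomes 10, 11 and 12: DPYSL4, GFRA1, INA, RET, NCAM1 and SYT1. The share of all genes on these chromosomes is not given, so nothing about neuronal genes is read from their position. DPYSL4, a relative of DPYSL5, was 9039 there and at most 339 in the other libraries, and GFRA1 was 44690.0 against at most 1669. MYT1L and RBFOX1 lie on other chromosomes, and per library total they were not higher in EV replicate 1. The 7 genes followed here were listed at 0 in EV replicate 1.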

How the results depend on the processing

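The limma count of genes with an adjusted p under 0.05 was 0 with no variance trend, pseudocounts of 0.1 and 10, no filter on low values, EV replicate 1 included or rescaled libraries, and the unadjusted p was under 0.05 for 486, 438, 398, 791, 25 and 426 genes. With each library left out in turn it ranged from 0 to 13, where a group left with 1 library was assumed to vary like the others. The samples share only a number, since no label ties same-numbered libraries and their deviations correlated at 0.095 across 16259 genes; with the replicate block the count was 0, with 715 at an unadjusted p under 0.05. The neuronal lists gave 0 genes in each of these settings.

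Genes with both G34W libraries above both WT libraries numbered 1891, 2589 with no filter and 2257 after rescaling, and 4203 to 5168 with a G34W library left out. The 145 genes at least 2-fold higher in G34W 2 became 949 with no filter, 87 with a pseudocount of 10, 289 without EV 2 and 1077 with G34W 1 in its place, and 133 and 160 after rescaling and with a pseudocount of 0.1. The cause was not tested.

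The sign of the log2 differences of the 7 genes was fixed by their choice, so only their size is given. With a library left out, CD200 (4.23) ranged from 1.96 to 6.50 and TMEM178B (3.95) from 2.50 to 5.41. A pseudocount of 10 moved 4 of the 7 by more than the spread within pairs, DOK6 from 4.58 to 2.74, NOVA1 from 3.51 to 2.35, DPYSL5 from 3.54 to 2.30 and MAP2 from 3.80 to 2.41, and a pseudocount of 0.1 moved DOK6 to 5.10. Low values of few fragments, 2 libraries a group, 1 usable EV library and the conflict between titles and genotype field limit these results.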
